A study of Homo sapiens with 8 samples.

Results

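Of 65514 transcript isoforms with valid values, 55 were depleted from polysomes in HT-144 cells, whichever siRNA the cells had received. An isoform was taken as depleted when it had at least 5 FPKM in each of the 4 total RNA libraries, when its highest polysomal value was at most 50% of its lowest total RNA value, and when no polysomal value was 0. FPKM counts sequenced fragments after dividing by transcript length and by the number of fragments mapped in the library. The members were therefore chosen by their polysomal and total RNA values, and the depletion is described below without a test. HT-144 is an established human melanoma cell line. The cells received control siRNA or siRNA against DDX3X. From each, RNA was taken whole or from the polysomal fractions of a sucrose gradient and sequenced in 2 libraries, which gives 8 libraries in 4 groups. No other treatment, time or genotype is given in the labels. Whether the 2 libraries of a group stem from separate cultures is not said in the labels. The p-values hence set each change only against the scatter between these libraries, and that scatter may be technical.

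Polysomes are messenger RNAs that carry several ribosomes at once, and they sediment deep in a sucrose gradient. RNAs that are known to be scarce there include noncoding RNAs, RNAs kept in the nucleus and messenger RNAs that are translated poorly or hold room for few ribosomes. DDX3X belongs to the DEAD-box helicases, enzymes that unwind RNA, and is known for its part in starting translation on messenger RNAs with structured leader sequences. The isoforms carry UCSC-style identifiers that the files do not pair with gene names, and 1 of 65535 identifiers, which is no member, matched the reference gene tables used here. The members are therefore given by identifier, without gene names, functions, positions or sequences. DDX3X itself, the melanocyte markers and the markers of other cell types were not analysed here, so neither the knockdown nor the cell line was checked.

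The libraries each had 12786 to 13481 isoforms at 1 FPKM or more. Their depth is unknown, because FPKM holds no read counts. Median-of-ratios factors between the libraries ran from 0.949 to 1.18, but the summed FPKM differed more. It was 896504 and 654252 in control polysomal RNA and 5486860 and 2386820 in DDX3X polysomal RNA, against 2990410 to 3395220 in the 4 total RNA libraries. Its part in the results was not tested, and values after median-of-ratios scaling are given beside them. DDX3X polysomal replicate 1 listed 158 of 15531 tested isoforms at 0, against 67 to 103 in each of the other 7 libraries. FPKM is relative to its own library, so a polysomal value at 50% of the total RNA value does not mean that 50% of the molecules lay on polysomes. In bulk RNA, a lower level in every cell and the same level in fewer cells cannot be told apart.

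The most depleted member was also the most abundant. The total RNA of isoform uc001vxa.1 measured 35368 and 37116 FPKM with control siRNA, and 42360 and 43129 FPKM with DDX3X siRNA. On polysomes it had 303 and 246 FPKM with control siRNA and 233 and 246 FPKM with DDX3X siRNA. Every polysomal value was thus under 1% of every total RNA value, and the fractions were far apart in all 4 groups. Its polysomal mean was 0.758% of its total RNA mean with control siRNA and 0.560% with DDX3X siRNA.

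Isoform uc010nap.1 came next in the order of depletion. Its total RNA values were 317 and 313 FPKM with control siRNA and 347 and 373 FPKM with DDX3X siRNA. Its polysomal values were 11.8 and 11.03 FPKM with control siRNA and 6.999 and 9.68 FPKM with DDX3X siRNA. Its total RNA replicates and control polysomal replicates lay close together, its DDX3X polysomal replicates less so, and its highest polysomal value was 3.78% of its lowest total RNA value.

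Isoform uc032wyd.1 had the second highest total RNA level among the members. In total RNA its control values were 1933 and 4064 FPKM and its DDX3X values 2409 and 3033 FPKM. Its polysomal values were 41.8 and 74.2 FPKM with control siRNA and 20.3 and 22.9 FPKM with DDX3X siRNA. The control libraries of this isoform were spread widely in both fractions, and its polysomal libraries did not overlap between the siRNAs.

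**Figure D1:**
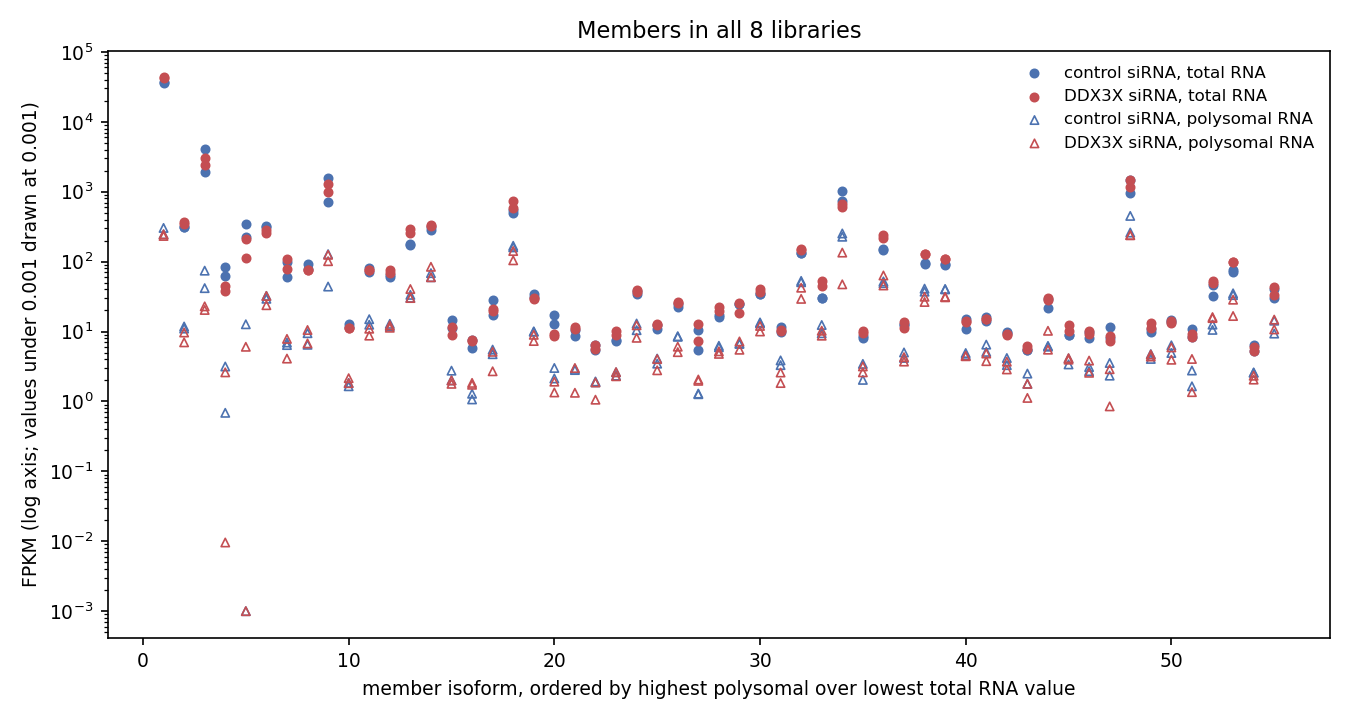
FPKM on a log axis of each of the 55 members in all 8 libraries, with members ordered from the most to the least depleted by their highest polysomal value over their lowest total RNA value. Filled circles are total RNA, open triangles polysomal RNA, blue is control siRNA and red DDX3X siRNA. The triangles lie below the circles for every member because the members were chosen that way. The gap between the highest triangle and the lowest circle is widest for the first member. It had 35368 to 43129 FPKM in total RNA against 233 to 303 FPKM on polysomes. Single triangles of the 2 members with a polysomal value under 0.1 FPKM lie farther below their circles, and values next to 0 are drawn at a floor.

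The depth of depletion varied widely among the members. The polysomal mean ran from 0.758% to 46.9% of the total RNA mean with control siRNA, with a median of 30.1%, and from 0.560% to 39.1% with DDX3X siRNA, with a median of 23.2%. The highest polysomal value was at most 10% of the lowest total RNA value in 4 members, at most 25% in 13 and at most 40% in 31. On the log2(FPKM + 1) scale, the polysomal minus total difference of the members had a median of -1.57 with control siRNA and -1.87 with DDX3X siRNA. The medians of all 15531 tested isoforms were 0.12 and 0.07. After median-of-ratios scaling the median of all tested isoforms with control siRNA was -0.01 and that of the members -1.74.

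The order of the members was much the same with both siRNAs. Of the 10 members with the lowest polysomal percentage with control siRNA, 9 were also among the lowest 10 with DDX3X siRNA. Across the 55 members, which are not independent replicates and share the rule and the libraries of each fraction, the percentages with the 2 siRNAs had a Spearman rho of 0.77. This correlation is a description without a test.

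**Figure D2:**
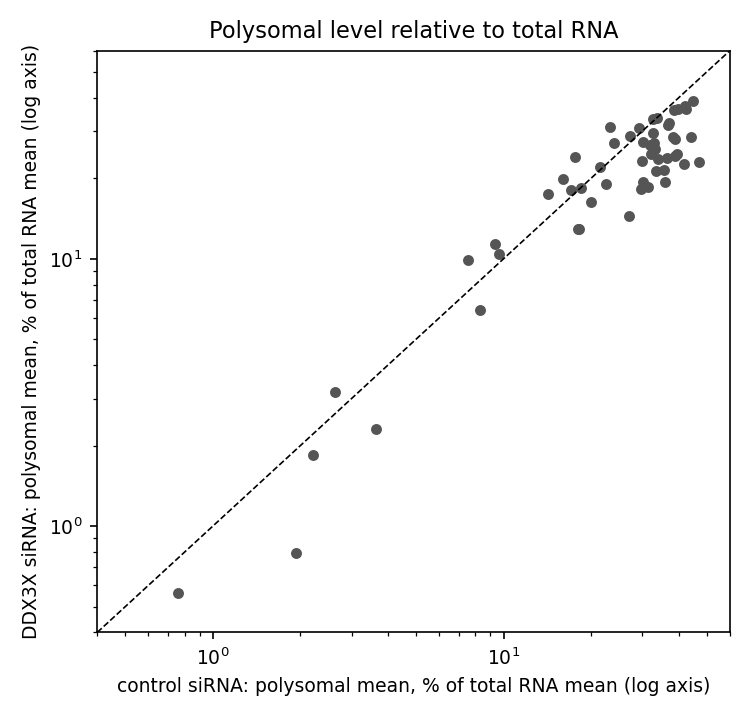
Polysomal mean as a percentage of the total RNA mean for each of the 55 members, with control siRNA on the x axis and DDX3X siRNA on the y axis, both log axes. The dashed line marks equal percentages. Of the 55 points, 41 lie below it and 14 above it.

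Members were found at all levels of total RNA above the limit of 5 FPKM set by the rule. Of the 1993 isoforms whose lowest total RNA value was 5 to under 10 FPKM, 17 were members (0.853%), and of the 1565 isoforms at 10 to under 20 FPKM, 9 were (0.575%). At 20 to under 100 FPKM 16 of 1541 isoforms were members (1.04%), and at 100 FPKM or more 13 of 392 (3.32%). The members at 100 FPKM or more were also the most depleted, with a median of 23.3% for the highest polysomal over the lowest total RNA value. The median was 42.9% for the members under 10 FPKM. The rule used these levels, so the shares are a description.

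At the edge of the rule the values ran on without a gap. The 3 members nearest to the 50% limit had highest polysomal values of 49.9%, 49.8% and 49.6% of their lowest total RNA value, at 14.8 against 29.7 FPKM, 2.60 against 5.21 FPKM and 35.2 against 71.0 FPKM. The 3 isoforms just outside it stood at 50.8%, 50.9% and 51.3%, at 444 against 874 FPKM, 70.2 against 138 FPKM and 706 against 1376 FPKM. At the level limit, the lowest members had a lowest total RNA value of 5.21 and 5.38 FPKM. The nearest isoforms below it had 4.90 and 4.83 FPKM and met the other conditions. In all, 381 isoforms below this limit met the other conditions, more than the number of members. A level limit of 2 FPKM gave 97 isoforms, the 55 members among them, so most of the 381 lay under 2 FPKM.

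A further 14 isoforms met the limits on level and ratio but were listed at 0 in at least 1 polysomal library, and so were no members. Of these, 6 were at 0 in all 4 polysomal libraries, 3 in 3, 3 in 2 and 2 in 1. Their lowest total RNA values ran from 14.3 to 240738 FPKM, with a median of 154 FPKM, against 22.4 FPKM for the members. An exact 0 from Cufflinks can be a failed estimate, so no ratio is given for them. DDX3X polysomal replicate 1, the library with the most isoforms at 0, was at 0 for all of these 14.

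Most members were measured on polysomes above 0, but some at low levels, such as uc001ick.3 at 1.07 to 1.84 FPKM. At such levels the 1 added to FPKM before the log2 makes changes smaller. In 52 of the 55 every polysomal value was at least 1 FPKM, and 2 members had a polysomal value under 0.1 FPKM. Isoform uc031xqz.1 passed the condition of no 0 only by numbers that cannot be told from 0, at 6.96e-28 FPKM in control polysomal replicate 1 and 2.22e-90 FPKM in DDX3X polysomal replicate 1. Replicate 2 of the same groups gave 12.7 and 6.05 FPKM. Its total RNA values were 226 and 347 FPKM with control siRNA and 114 and 213 FPKM with DDX3X siRNA. Its spread between replicates was the widest of all members, and 4 members, this one among them, had a replicate SD pooled over the groups of more than 0.5 on the log2 scale.

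The members varied somewhat more between replicates than other isoforms of at least 5 FPKM in total RNA. The median absolute log2 difference between replicates of control total RNA was 0.16 for the members and 0.10 for the 5436 others, and of DDX3X total RNA 0.12 and 0.10. On polysomes it was 0.18 against 0.13 with control siRNA and 0.32 against 0.25 with DDX3X siRNA. The rule chose members that are low on polysomes, and the sets were not matched for level, so the part of level in this was not tested. Replicates were more than 2-fold apart for 6 members in DDX3X polysomal RNA, for 3 in control polysomal RNA, for 2 in control total RNA and for 0 in DDX3X total RNA. In DDX3X polysomal RNA replicate 1 lay below replicate 2 for 43 of the 55 members (78.2%), and for 70.5% of all tested isoforms. For members and other isoforms alike, the DDX3X polysomal pair was the least close of the 4 pairs, and its part in the results below is given by leaving out each library.

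The rule took the highest and lowest values over the libraries of both siRNAs without regard to the siRNA. The direction of the change with DDX3X siRNA hence did not choose the members, and the change was tested. The test used the same libraries as the rule, which limited how high polysomal and how low total RNA values could be with either siRNA. The size of the changes is therefore not independent of the rule. Each change was tested with limma on log2(FPKM + 1) over all 15531 isoforms that reached 1 FPKM in 2 or more libraries, which included all 55 members, with Benjamini-Hochberg adjustment over all of them. The question was whether DDX3X siRNA altered the level of the depleted isoforms on polysomes, their level in total RNA, or the gap between the fractions.

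On polysomes 0 of the 55 members passed the test for a change with DDX3X siRNA (limma adjusted p from 0.0994 upwards). Of all tested isoforms 0.29% passed, so 0 of 55 does not set the members apart. The log2 changes had a median of -0.19 for the members and -0.02 for all tested isoforms, with 39 members below 0 and 16 above. Among all tested isoforms 52.6% lay below 0 and 47.1% above. An unadjusted limma p under 0.05 was reached by 11 members with a value below 0 and by 1 with a value above 0, against 8.02% and 7.48% of all tested isoforms. Among the 5436 other isoforms at 5 FPKM or more in total RNA the shares were 13.7% and 11.8%, or 25.5% in either direction, against 21.8% of the members. Both DDX3X libraries lay below both control libraries for 22 members and above them for 3, against 23.5% and 22.1% of all tested isoforms. Without DDX3X polysomal replicate 1 the members' median was -0.07, with 32 of 55 below 0, and without replicate 2 of the same group it was -0.28, with 45 below 0. The median of all tested isoforms moved the same way, to 0.07 and -0.10. After median-of-ratios scaling the medians were -0.17 for the members and -0.01 for all tested isoforms, with 38 members below 0. Without DDX3X polysomal replicate 2, 4 members passed, among them uc010nap.1 with a limma adjusted p of 0.0459 at a log2 change of -0.63, and 1.6% of all tested isoforms passed there.

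The lowest p on polysomes belonged to isoforms with close replicates. Isoform uc001fds.3 had 40.1 and 40.5 FPKM with control siRNA and 30.9 and 31.4 FPKM with DDX3X siRNA, a log2 change of -0.36 ± 0.08 (SE; 95% interval -0.54 to -0.18). The 2 groups did not overlap, but the limma adjusted p was 0.0994. Isoform uc002uyd.4 had 8.41 and 8.57 FPKM with control siRNA and 5.07 and 6.07 FPKM with DDX3X siRNA, a log2 change of -0.53 ± 0.12 (SE) and a limma adjusted p of 0.110.

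The 3 isoforms described first did not pass either. Isoform uc032wyd.1 had a log2 change on polysomes of -1.33 ± 0.39 (SE) with a limma adjusted p of 0.181, where its total RNA differed by -0.05. For uc010nap.1 the change on polysomes was -0.42 ± 0.14 (SE) with a limma adjusted p of 0.224. For uc001vxa.1 it was -0.19 ± 0.11 (SE) with a limma adjusted p of 0.479, and its groups were separated only by the gap between 245.6 and 246.1 FPKM.

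Among the members higher with DDX3X siRNA by value, the lowest p had larger errors. Isoform uc003phm.1 had 12.6 and 10.6 FPKM with control siRNA and 16.1 and 15.6 FPKM with DDX3X siRNA, a log2 change of 0.43 ± 0.17 (SE) and a limma adjusted p of 0.311. Isoform uc001ick.3 had 1.29 and 1.07 FPKM with control siRNA and 1.84 and 1.73 FPKM with DDX3X siRNA, a log2 change of 0.36 ± 0.16 (SE) and a limma adjusted p of 0.351. For both isoforms the DDX3X libraries lay above the control libraries, without passing the test.

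In total RNA 0 of the 55 members passed the test for a change with DDX3X siRNA (limma adjusted p from 0.0957 upwards). Of all tested isoforms 0.773% passed, so here too 0 of 55 does not set the members apart. The median log2 change was 0.12 for the members and 0.04 for all tested isoforms, with 36 members above 0 and 19 below. Among all tested isoforms 54.6% lay above 0 and 45.3% below. An unadjusted limma p under 0.05 was reached by 6 members above 0 and 1 below, against 11.2% and 7.14% of all tested isoforms and 13.9% and 9.4% of the others at 5 FPKM or more. Both DDX3X libraries lay above both control libraries for 23 members and below them for 9, against 29.9% and 22.9% of all tested isoforms. The members' median was 0.05 after median-of-ratios scaling, with 23 below 0, where that of all tested isoforms was -0.01. It was also 0.05 without control total replicate 1, with 27 below 0, where that of all tested isoforms was 0.01.

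The lowest p in total RNA belonged to isoform uc010tyq.2, at 30.4 and 30.3 FPKM with control siRNA and 45.3 and 52.5 FPKM with DDX3X siRNA. Its log2 change was 0.67 ± 0.15 (SE; 95% interval 0.30 to 1.04) with a limma adjusted p of 0.0957. Isoform uc001ure.3 had 94.1 and 92.8 FPKM with control siRNA and 127 and 130 FPKM with DDX3X siRNA, a log2 change of 0.46 ± 0.11 (SE) and a limma adjusted p of 0.0979. In both isoforms the groups did not overlap.

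Below 0 in total RNA, isoform uc001vdy.3 had 13.0 and 17.0 FPKM with control siRNA and 8.77 and 9.24 FPKM with DDX3X siRNA, a log2 change of -0.67 ± 0.20 (SE) and a limma adjusted p of 0.154. Isoform uc010yzd.1 had 323 and 317 FPKM with control siRNA and 284 and 256 FPKM with DDX3X siRNA, a log2 change of -0.25 ± 0.15 (SE) and a limma adjusted p of 0.428. Both were also lower on polysomes by the mean. The first of them had 2.13 and 3.01 FPKM there with control siRNA and 1.34 and 1.92 FPKM with DDX3X siRNA. The second had 29.4 and 32.4 FPKM with control siRNA and 32.3 and 23.8 FPKM with DDX3X siRNA, so its groups overlapped.

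**Figure D3:**
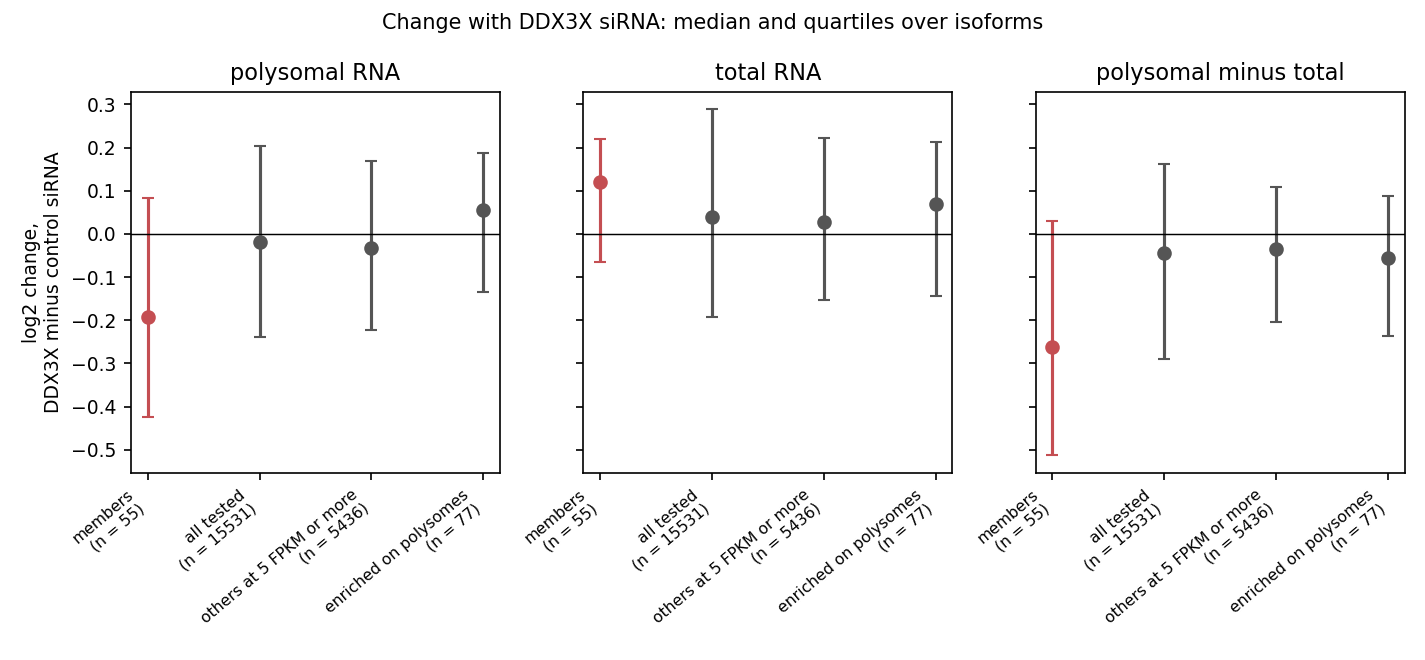
Change with DDX3X siRNA on the log2(FPKM + 1) scale in polysomal RNA, in total RNA and as the difference between both, with points for the median and bars for the quartiles over isoforms. For the members (red) the medians were -0.19, 0.12 and -0.26, and for all tested isoforms -0.02, 0.04 and -0.05. The sets other than all tested isoforms are those with at least 5 FPKM in all total RNA libraries without the members and those enriched on polysomes by the same rule with the fractions exchanged.

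The gap between polysomal and total RNA was then compared between the siRNAs, as the polysomal change minus the total RNA change. For 0 of the 55 members did this difference pass (limma adjusted p from 0.211 upwards), where 0.116% of all tested isoforms passed. Its median was -0.26 for the members and -0.05 for all tested isoforms, so by value the depletion was deeper with DDX3X siRNA. It lay below 0 for 40 members and above 0 for 15, against 56.2% and 43.8% of all tested isoforms. An unadjusted limma p under 0.05 was reached by 12 members below 0 and by 0 above 0, against 5.23% and 2.15% of all tested isoforms, or 7.39% in either direction. Among the others at 5 FPKM or more the shares were 6.57% and 1.89%. The members' median was -0.18 after median-of-ratios scaling, where that of all tested isoforms was 0.03. With a pseudocount of 0.1 the members' median was -0.29 and with 5 it was -0.13, where that of all tested isoforms was -0.06 and -0.02. It was -0.18 without DDX3X polysomal replicate 1 and -0.36 without replicate 2, where that of all tested isoforms was 0.04 and -0.14. Without the 4 members of widest replicate spread the median was again -0.26, with 39 of 51 below 0.

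The difference with the lowest p was that of isoform uc001ure.3. On polysomes it had 37.2 and 41.0 FPKM with control siRNA and 26.5 and 31.5 FPKM with DDX3X siRNA, against the higher total RNA values with DDX3X siRNA given above. Its difference was -0.88 ± 0.15 on the log2 scale (SE; 95% interval -1.24 to -0.52) with a limma adjusted p of 0.211. The total RNA values of isoform uc001fds.3 were 90.3 and 92.7 FPKM with control siRNA and 108 and 110 FPKM with DDX3X siRNA. Its difference was -0.61 ± 0.11 (SE; 95% interval -0.86 to -0.35) with a limma adjusted p of 0.220.

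The differences above 0 with the lowest p were about as large as their errors. Isoform uc003fpg.4 had 1.65 and 1.84 FPKM on polysomes with control siRNA and 1.82 and 2.15 FPKM with DDX3X siRNA, and 12.9 and 11.6 against 11.4 and 11.4 FPKM in total RNA. Its difference was 0.21 ± 0.19 (SE) with a limma adjusted p of 0.908. For uc001ick.3 the difference was 0.21 ± 0.23 (SE) with a limma adjusted p of 0.930. The median SE of the difference over the members was 0.24, so a difference of the size of the members' median could not be told from 0 for a typical single member.

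For 10 members both DDX3X libraries lay below both control libraries on polysomes and above both in total RNA, and for 0 members the reverse held. Among all tested isoforms 3.06% showed the first pattern and 1.37% the second. The first pattern was shown by 189 of the 5436 other isoforms with at least 5 FPKM in all total RNA libraries (3.48%) and by 2 of the 77 isoforms enriched on polysomes (2.6%). The 10 members included both of the most depleted, uc001vxa.1 and uc010nap.1. They also included the 2 with the lowest p for the difference, uc001ure.3 and uc001fds.3, a p that comes from the same values as the pattern. Their lowest total RNA values ran from 16.1 to 35368 FPKM. Their log2 changes were -0.62 to -0.19 on polysomes and 0.13 to 0.46 in total RNA, and 0 of the 10 passed either test (limma adjusted p 0.0994 to 0.479 and 0.0979 to 0.679).

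**Figure D4:**
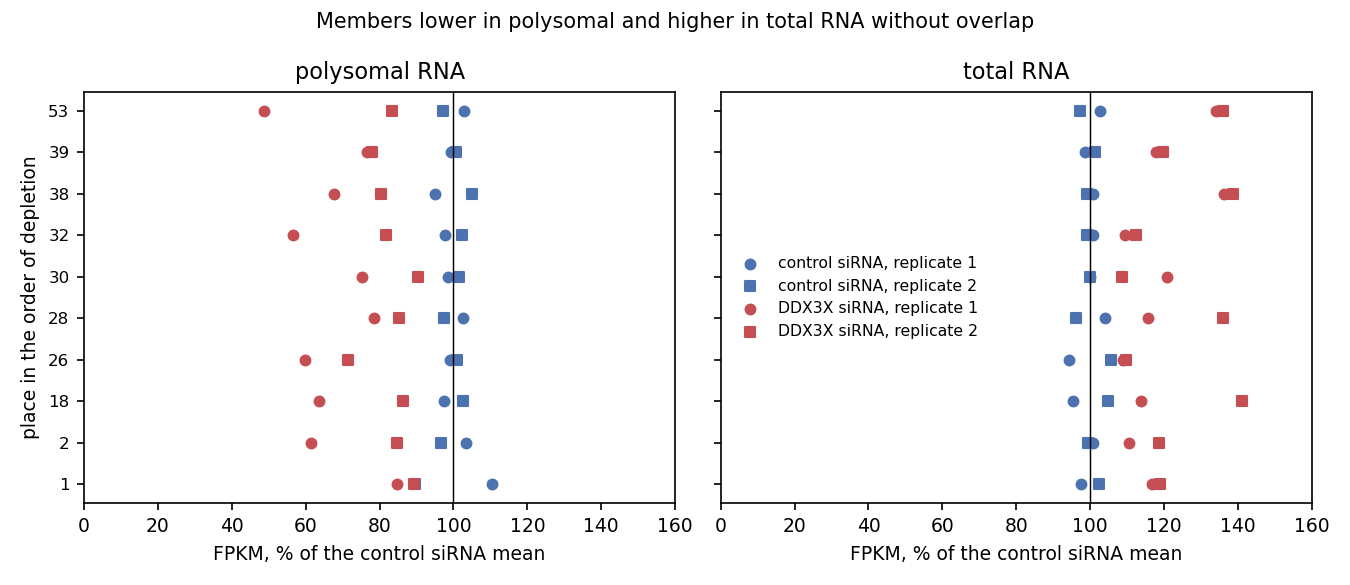
FPKM of the 10 members whose DDX3X libraries lay below both control libraries on polysomes (left) and above both in total RNA (right), as a percentage of the control siRNA mean of the same fraction. Each line holds a member at its place in the order of depletion, circles are replicate 1 and squares replicate 2. For the most depleted member the DDX3X library at 246 FPKM on polysomes touches the control library at 246 FPKM, and DDX3X replicate 1 is the lower of the 2 on polysomes for all 10.

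These counts moved with single libraries. After median-of-ratios scaling 7 members showed the first pattern, against 3.61% of the other isoforms at 5 FPKM or more, and after quantile normalization 8, against 3.55%. Without DDX3X polysomal replicate 2 there were 19, against 13.1% of the others, and without control total replicate 2 there were 17, against 5.78%. Without DDX3X polysomal replicate 1, the library with more isoforms at 0, there were 10, against 4.03%. Leaving out a library only loosens the condition of no overlap, so these counts could stay or rise but not fall. Only the scaled values could lower them. These alternatives were chosen after the values had been seen.

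The percentage of the polysomal over the total RNA mean describes the same gap from the same values, so it is no separate evidence. It was lower with DDX3X siRNA for 41 of the 55 members, and for 55.5% of the 5436 other isoforms at 5 FPKM or more. After median-of-ratios scaling it was lower for 39 members and for 40.7% of the others, so the majority among the others turned with the scaling and that of the members did not. Without DDX3X polysomal replicate 1 it was lower for 36 members and 39.4% of the others, and without DDX3X polysomal replicate 2 for 45 members and 68.5% of the others. No p-value is given for these counts, since the members were chosen together and share their libraries.

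The isoforms enriched on polysomes gave a contrasting set of 77. In them the median change with DDX3X siRNA was 0.06 on polysomes and 0.07 in total RNA, and the median difference was -0.06, close to the -0.05 of all tested isoforms. Of these 77, 0 passed the test in any of the 3 comparisons, with 14, 16 and 7 at an unadjusted limma p under 0.05. Whether the depleted and the enriched isoforms differed in their change was not tested.

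**Figure D5:**
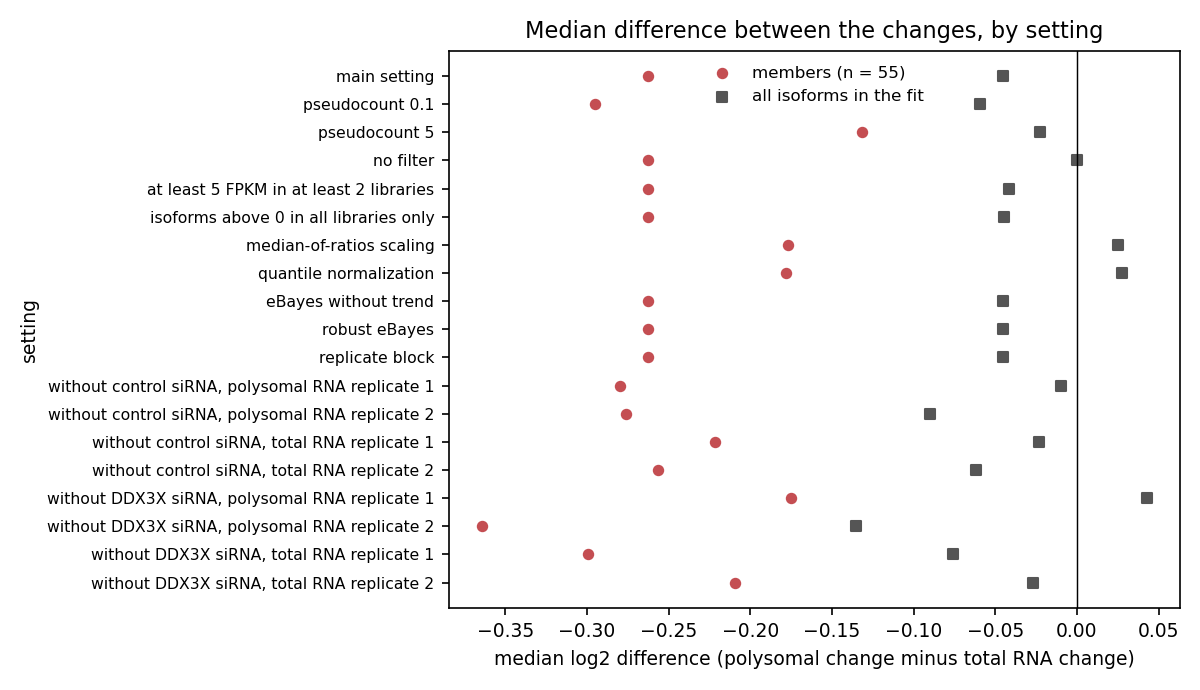
Median over isoforms of the polysomal change minus the total RNA change with DDX3X siRNA (log2 scale), for the 55 members (red circles) and all isoforms in the fit (grey squares), under the main setting and each of 18 alternatives. The members' median runs from -0.36 to -0.13 and lies to the left of the squares in all settings, and the most negative value is that without DDX3X polysomal replicate 2.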

How the data were processed

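Total and polysomal RNA of HT-144 cells was sequenced in read pairs of 75 bp, per the labels' protocols. The submitters' processing notes name TopHat2, Cufflinks 2.2.1 and the build hg38. The annotation and settings are not given in the sources used here. A single deposited table holds the authors' FPKM values for 65535 isoforms. Lines with text (14) or the same whole number in all 8 columns (7) were left out, and decimal commas in 5 cells were turned into points. Cufflinks shares out reads among overlapping isoforms by estimation, so isoforms of one gene are uncertain. Groups and replicate numbers came from the sample titles.

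Values were transformed as log2(FPKM + 1), without scaling. limma 3.58.1 under R 4.3.3 fitted the 4 group means and moderated the variances with a trend on intensity (residual degrees of freedom 4, prior 2.65), with Benjamini-Hochberg adjustment over 15531 isoforms in each of 3 comparisons and a threshold of 0.05. The code was tested on simulated data. Of 100 simulated 2-fold changes it recovered 44 on polysomes, 56 in total RNA and 14 for the difference, so many changes of that size would be missed. Figures were drawn with matplotlib 3.10.9. The members, comparisons and lists were chosen with earlier results of these data known. Gene lists were not used, since identifiers could not be paired with names. The isoforms named are those first in the order of depletion, of total RNA level and of p in each comparison, at most 2 per direction, plus uc031xqz.1, chosen after its values had been seen. Over all tested isoforms, same-numbered libraries of different groups did not deviate together.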

Additional observations from a re-analysis of the deposited data

How the results depend on the processing

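In the main setting 0 members passed in any of the 3 comparisons. On polysomes 1 passed with no filter (0.408% of all isoforms in that fit), 1 after median-of-ratios scaling (1.38%) and 0 to 4 without single libraries, the 4 without DDX3X polysomal replicate 2 (1.6%). In total RNA 2 passed after median-of-ratios scaling (2.99%), 3 after quantile normalization (3.35%) and 0 to 1 without single libraries, the 1 without either DDX3X polysomal replicate (1.38% and 1.42%). The difference between the changes passed for 1 member with no filter (0.465%) and for 0 to 1 without single libraries, the 1 without DDX3X polysomal replicate 2 (0.161%). In these fits the library left alone in its group is assumed to vary like the other groups. With the replicate block 0 members passed in each comparison. Over all tested isoforms, same-numbered libraries had correlations of deviations from -0.0849 to 0.0795 between groups, which showed no pairing by number. Isoforms of low level and wide scatter enter these correlations, so they cannot decide whether same-numbered libraries share a culture. Over all isoforms the calls on polysomes ran from 6 to 248 (45 in the main setting), in total RNA from 14 to 520 (120) and for the difference from 0 to 219 (18). The median of the members' changes kept its sign in the 19, 19 and 18 alternatives of the 3 comparisons, as did the 4 isoforms named for their p in each, while the other named isoforms were not followed there. Under other limits 17 isoforms met a ratio limit of 33.3%, 136 one of 66.7%, 97 a level of 2 FPKM and 83 the rule after quantile normalization (57 to 78 without single libraries). The members' median polysomal minus total difference was -1.25 with control and -1.43 with DDX3X siRNA at a pseudocount of 5, -1.81 with control siRNA after quantile normalization, and -1.64 to -1.52 and -2.09 to -1.78 without single libraries. The pattern of lower polysomal and higher total RNA values was counted for 10 to 19 members without single libraries, where the count could not fall. A lower percentage was counted for 36 to 45.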
